A study of Mus musculus with 24 samples.

Results

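The regions described here were the differentially hydroxymethylated regions (DhMRs) that lay far from any gene start. A DhMR was a 200 bp genomic window whose 5-hydroxymethylcytosine (5hmC) signal differed between 2 mouse embryonic stem cell (ESC) lines, and it was called far when its midpoint was more than 100 kb from the nearest curated RefSeq transcription start site of GRCm38 on either strand. Of the 20726 DhMRs in both lists, 3388 were far (16.3%, 95% Wilson interval 15.8 to 16.9%), and the other 17338 are called the remaining DhMRs. Both lines derived from ESCs of mixed C57BL/6J-129V background that lack Tet1, Tet2 and Tet3, were kept in 2i medium with LIF, and carried human Tet3 on a lentivirus. Wt25 was 1 puromycin-selected clone with wild-type Tet3, and AA10 was 1 clone with the phospho-mutant Tet3, with a similar Tet3 protein level per the study. 5hmC was measured by DNA immunoprecipitation and sequencing (5hmC-DIP) in 3 libraries per line, which the authors pooled in 1 comparison, so each DhMR carried only a position, a direction and a gene identifier. Library depth, read counts and the spread between replicates were not carried by the lists, the effect of the Tet3 mutation and of the clone cannot be told apart, and every percentage interval below covers counting error only.

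Tet enzymes oxidise 5-methylcytosine, mostly at CpG dinucleotides, to 5hmC and further products that can be replaced by unmodified cytosine. Away from promoters 5hmC is known from gene bodies and distal enhancers. Gene deserts are long stretches without protein-coding genes that often flank developmental genes and may hold their distal enhancers, and very long introns, frequent in genes for neuronal adhesion and signalling, can hold enhancers of a neighbouring gene as well.

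The sequences below are the listed bases of the windows that stand for the main places where far DhMRs were found: the farthest window, the window with most CpGs, and the first window in the leading gene and in the leading intergenic gap of each list. Sequence was read from the plus strand of GRCm38, 5′ to 3′, and capitals mark CpG dinucleotides, the main substrate of Tet enzymes.
Wt25, farthest, chr17:60767003-60767200: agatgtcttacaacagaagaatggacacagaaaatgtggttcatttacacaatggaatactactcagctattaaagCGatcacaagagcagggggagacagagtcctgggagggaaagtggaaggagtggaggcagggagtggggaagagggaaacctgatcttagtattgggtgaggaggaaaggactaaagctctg
AA10, farthest, chr14:92055003-92055200: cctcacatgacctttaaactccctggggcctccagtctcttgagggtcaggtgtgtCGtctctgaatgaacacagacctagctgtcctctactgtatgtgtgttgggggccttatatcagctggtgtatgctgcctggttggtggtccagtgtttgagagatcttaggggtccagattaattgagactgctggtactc
Wt25, most CpGs, chr4:89876003-89876200: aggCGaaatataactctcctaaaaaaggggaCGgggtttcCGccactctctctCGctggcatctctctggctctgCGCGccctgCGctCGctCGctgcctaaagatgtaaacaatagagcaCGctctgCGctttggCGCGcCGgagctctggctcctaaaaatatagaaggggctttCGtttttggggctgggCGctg
AA10, most CpGs, chr1:89581403-89581600: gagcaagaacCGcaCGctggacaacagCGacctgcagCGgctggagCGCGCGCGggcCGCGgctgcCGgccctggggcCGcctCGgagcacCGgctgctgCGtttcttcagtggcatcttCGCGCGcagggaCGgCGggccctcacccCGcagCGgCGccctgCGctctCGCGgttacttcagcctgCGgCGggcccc
Wt25, intron of Ptprg, chr14:11654203-11654400: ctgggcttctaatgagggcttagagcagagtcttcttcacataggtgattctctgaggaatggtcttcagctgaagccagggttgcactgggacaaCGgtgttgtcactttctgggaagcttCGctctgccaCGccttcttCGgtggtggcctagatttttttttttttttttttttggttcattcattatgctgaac
AA10, intron of Sgcz, chr8:37675003-37675200: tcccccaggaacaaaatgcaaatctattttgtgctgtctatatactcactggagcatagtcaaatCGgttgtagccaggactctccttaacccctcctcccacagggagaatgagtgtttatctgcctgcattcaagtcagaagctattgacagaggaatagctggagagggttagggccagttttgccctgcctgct
Wt25, gap from Gm10745 to Ralyl, chr3:12530003-12530200: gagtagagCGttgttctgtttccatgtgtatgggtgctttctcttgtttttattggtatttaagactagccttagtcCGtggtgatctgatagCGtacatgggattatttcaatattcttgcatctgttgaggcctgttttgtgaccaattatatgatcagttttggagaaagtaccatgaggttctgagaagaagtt
AA10, gap from Gm4425 to Gm38538, chr12:22283403-22283600: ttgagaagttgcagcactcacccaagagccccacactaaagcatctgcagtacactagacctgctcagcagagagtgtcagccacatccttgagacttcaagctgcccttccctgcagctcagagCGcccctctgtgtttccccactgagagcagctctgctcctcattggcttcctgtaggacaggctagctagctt

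The farthest windows of both lists held 1 CpG each. The farthest Wt25 window lay 1754 kb from the start of Nudt12, a nucleotide hydrolase gene, and 71.7% of its bases were marked as repeat in the assembly. The farthest AA10 window lay 1836 kb from the start of Pcdh9, a protocadherin gene, was 93.9% repeat marked, and the median 32-mer of that window occurred 10 times in the assembly. The Wt25 window printed for most CpGs held 16, was wholly repeat marked (100%) with a median of 36 copies, and lay 188 kb from Dmrta1, a DM-domain transcription factor gene. A Wt25 window in an intron of Sema3c, a semaphorin gene, also held 16 CpGs, with a median of 3 copies, and came after it by gene name only. The richest AA10 window held 28 CpGs, had no repeat-marked base and 1 copy, and lay in an intron of Agap1, a GTPase-activating protein gene. The AA10 windows of rank 2 and 3 by CpG number touched each other on chromosome 12 and held 27 and 21 CpGs. In the full RefSeq set, which adds predicted transcripts, both of these lay in an exon of the predicted gene Gm10476. Their nearest start site in that set was 0.5535 and 0.3535 kb away. The Agap1 window likewise lay 0.5745 kb from the start of the predicted gene Gm41914, so these 3 windows were far only from curated start sites. In the full set the farthest Wt25 window lay 192 kb from Gm33890, and the farthest AA10 window 314 kb from Gm24127.

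How far these windows were from a start site depended on the annotation. With the predicted RefSeq transcripts included, 1871 of the 3388 far DhMRs (55.2%) had a start site within 100 kb and 338 (9.98%) had one within 10 kb. The count of far DhMRs was 1517 with all RefSeq start sites, 504 with GENCODE start sites and 4090 with protein-coding curated start sites. Curated RefSeq transcripts are used throughout, and they include noncoding RNAs and microRNA precursors.

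The far DhMRs were almost evenly divided between the directions: 1717 had higher 5hmC in Wt25 and 1671 had higher 5hmC in AA10. Over the whole genome, 0.0914% of the 200 bp bins without unknown bases were listed as higher in Wt25 and 0.0652% as higher in AA10. Among far bins, which made up 36.9% of all bins, 0.0351% were listed as higher in Wt25 and 0.0342% as higher in AA10. DhMRs thinned out with distance in both directions together, from 28.9 per 10000 bins within 10 kb of a start site to 8.79 at 100 to 200 kb, 6.55 at 200 to 500 kb, 4.98 at 500 kb to 1 Mb and 3.08 beyond 1 Mb. The far share of the AA10 list, 19.4% (18.5 to 20.2%), was above that of the Wt25 list, 14.2% (13.6 to 14.8%).

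The direction of far and remaining DhMRs was compared next. Of the far DhMRs 50.7% (49.0 to 52.4%) were higher in Wt25, against 59.9% (59.1 to 60.6%) of the remaining DhMRs, an odds ratio of 0.689 (Fisher's exact test, two-sided, Benjamini-Hochberg adjusted over 4 direction comparisons, P = 1.17e-22). That test counts each window as independent, which neighbouring windows are not. Far DhMRs of 1 list formed dense runs, defined as at least 20 consecutive windows of 1 direction with gaps of at most 10000 bp. Dense runs held 837 far DhMRs, 665 of AA10 (39.8% of the far AA10 list) and 172 of Wt25 (10.0%). They were not limited to far windows, and held 15.7% of the remaining AA10 and 11.6% of the remaining Wt25 DhMRs. Outside dense runs 60.6% of far and 61.0% of remaining DhMRs were higher in Wt25, the odds ratio was 0.982, and the same exact test no longer passed (adjusted P = 0.771). Leaving out only the 2 largest far runs, a setting chosen after seeing the data, turned the odds ratio to 1.05 (Fisher's exact test, adjusted P = 0.339).

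**Figure D1:**
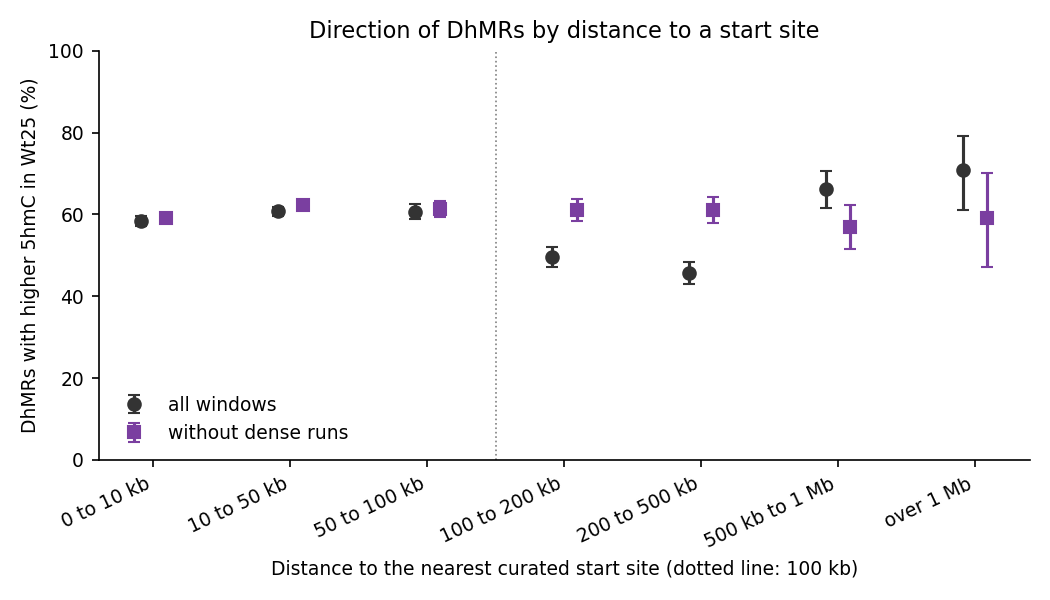
Share of DhMRs with higher 5hmC in Wt25 (%, vertical axis) by distance to the nearest curated start site, for all windows (circles) and without dense runs (squares), with 95% Wilson intervals. Shares for all windows ran from 45.7% at 200 to 500 kb to 71.0% beyond 1 Mb, and without dense runs they ran from 57.0% to 62.4% over the 7 distance classes.

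The 2 largest runs held 574 far DhMRs, all higher in AA10. The first, chr12:22305803-22483200, held 387 windows in 177 kb, 149 to 294 kb from the nearest curated start site. Its windows were 45.8% repeat marked with a median of 5 copies per 32-mer. The second, chr1:118102603-118170800, held 187 windows in 68.2 kb, 140 to 208 kb from Tsn, which encodes the RNA- and DNA-binding protein translin. Those windows were 91.6% repeat marked with a median of 56 copies. A shorter AA10 run of 21 windows lay on the centromeric side in the same gap, at chr1:118027203-118063800.

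Among Wt25 runs the leading one, chr3:12542803-12618000, held 64 windows in 75.2 kb, 699 to 774 kb from a start site, with 71.8% repeat-marked bases and a median of 1.5 copies. The run at chr2:99094603-99116200 held 27 windows 1627 to 1648 kb from Lrrc4c, which encodes a ligand of netrin-G in synapse formation, and was 87.3% repeat marked with a median of 10 copies. Several runs lay mostly in sequence not marked as repeat: 25 AA10 windows at chr3:21522603-21577200 were 28.8% repeat marked, 23 Wt25 windows at chr8:51198203-51245400 were 31.0% repeat marked, and 20 Wt25 windows at chr14:11720403-11777000 inside Ptprg were 13.2% repeat marked, each with a median of 1 copy. In all, 13 runs held far DhMRs, 7 of Wt25 and 6 of AA10. Among windows in dense runs, 16.5% of far AA10 and 67.4% of far Wt25 windows had a median of 1 copy, while outside runs the shares were 87.1% and 87.2%. Restricting the comparison of far with remaining DhMRs to windows of 1 copy, a setting added after seeing the data, gave an odds ratio of 0.975 (Fisher's exact test, adjusted P = 0.655). The part of repeated sequence in these runs was not tested. The gDNA input libraries were not analysed here, so a difference in 5hmC and a difference in DNA copy number between the 2 clones cannot be told apart, in these runs or on a whole chromosome.

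Most far DhMRs lay between genes. By position of the midpoint 2624 (77.4%, 76.0 to 78.8%) were intergenic, 738 (21.8%, 20.4 to 23.2%) were intronic and 26 (0.767%) were exonic. All far genome bins were divided in nearly the same way, with 77.7% intergenic, 22.0% intronic and 0.353% exonic. The lists differed: 28.1% (26.0 to 30.2%) of far Wt25 DhMRs but 15.3% (13.7 to 17.1%) of far AA10 DhMRs were intronic.

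In direction, 65.3% (61.8 to 68.7%) of intronic and 46.5% (44.6 to 48.4%) of intergenic far DhMRs were higher in Wt25, an odds ratio of 0.462 for intergenic against intronic (Fisher's exact test, two-sided, adjusted P = 1.85e-19). Without dense runs the shares were 63.3% and 59.6%, with an odds ratio of 0.853 that did not pass the exact test (adjusted P = 0.335). Pooled within chromosomes (Mantel-Haenszel) the odds ratio was 0.864 and did not pass either. Under 2 settings chosen after seeing the data the exact test did pass. The odds ratio was 0.781 without the 2 largest far runs (Fisher's exact test, adjusted P = 0.0223). For windows of 1 copy it was 0.710 (Fisher's exact test, adjusted P = 0.000915). Of the intergenic windows in dense runs, 665 were of AA10 and 132 of Wt25, and all 40 intronic windows in dense runs were of Wt25, inside Ptprg. The 26 exonic windows, 15 of Wt25 and 11 of AA10, carried on average 5.15 CpGs, against 3.06 in introns and 2.73 between genes.

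An intergenic gap, the sequence between 2 neighbouring genes, is called a gene desert here when it is at least 1 Mb long. Gene deserts held 929 far DhMRs, 27.4% (25.9 to 28.9%) of all far DhMRs, while they covered 39.0% of the far genome bins. Of the desert DhMRs 60.4% (57.2 to 63.5%) were higher in Wt25, against 38.9% (36.6 to 41.2%) of those in shorter gaps, an odds ratio of 2.40 (Fisher's exact test, two-sided, adjusted P = 1.71e-25). The difference again went with the runs. Dense runs in gaps under 1 Mb held 595 AA10 and 18 Wt25 windows, and those in deserts held 70 AA10 and 114 Wt25 windows. Without dense runs the odds ratio was 1.03 (Fisher's exact test, adjusted P = 0.771). Gaps at a chromosome end, which include unsequenced bases, held 53 far DhMRs, of which 52 were higher in AA10, and without them the odds ratio was 2.79.

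Beyond 500 kb from a start site 67.1% (62.9 to 71.1%) of 496 DhMRs were higher in Wt25, against 49.5% (47.1 to 51.9%) of 1646 at 100 to 200 kb, an odds ratio of 2.08 (Fisher's exact test, two-sided, adjusted P = 4.67e-12). This order turned around without dense runs, where the odds ratio was 0.855 and the exact test did not pass (adjusted P = 0.379). Dense runs had placed 342 AA10 windows at 100 to 200 kb and 0 AA10 windows beyond 500 kb, against 47 and 114 Wt25 windows. The median distance was 207 kb (quartiles 139 and 415 kb) for far Wt25 DhMRs and 200.3 kb (158 and 278 kb) for far AA10 DhMRs. At the threshold itself, 226 windows at 100 to 110 kb were 62.8% Wt25 with a mean of 2.98 CpGs, and 316 windows at 90 to 100 kb were 61.4% Wt25 with a mean of 2.94 CpGs.

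Ptprg, a receptor-type tyrosine phosphatase gene, held more far intronic DhMRs than any other gene. The gene (chr14:11553553-12242041, plus strand) held 83 far DhMRs in 4 introns, of which 82 were higher in Wt25. Counting windows nearer to a start site too, 106 of its 107 DhMRs were higher in Wt25, and 40 of the far ones were in dense runs. Wwox, which encodes a WW-domain oxidoreductase and spans a chromosomal fragile site, held 19 far DhMRs in both directions, 6 of Wt25 and 13 of AA10.

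Most of the next genes held far DhMRs of 1 direction. Etl4 (also called Skt, needed in the intervertebral disc) held 13 of 13 higher in Wt25. Cdh4, the R-cadherin adhesion gene, held 11 of 11 in Wt25. Magi2, a synaptic and junctional scaffold gene, held 10 of 10 in Wt25, and Morc1, which silences transposons in male germ cells, held 8 of 9 in Wt25. Sgcz, encoding zeta-sarcoglycan of the dystrophin complex, held 13 far DhMRs, all higher in AA10, and all 20 DhMRs along the whole gene (1139 kb) were of AA10. Far AA10 DhMRs also led in Kirrel3, a synaptic adhesion gene, with 6 of 6, and in Camk1d, a calcium/calmodulin-dependent kinase gene, and Exoc4, an exocyst subunit gene, with 4 of 4 each. Camk1d and Exoc4 were named by alphabetical order among 7 genes with 4 far AA10 windows each, which also included Gucy1a2, Magi1, Pdss2, Slit3 and Snd1. None of these genes other than Ptprg had a far intronic window in a dense run.

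In all, 313 genes held a far intronic DhMR, 179 of them only 1. Of 134 genes with at least 2, 100 held a single direction. Of the 27 genes with at least 5, 21 had more Wt25 and 6 more AA10 windows, and 17 held a single direction. The introns were long: the median intron around a far DhMR measured 94.2 kb, 355 windows (48.1%) lay in introns over 100 kb, and 85 lay in the first intron. The median host transcript spanned 446 kb over windows and 368 kb over genes. Axon guidance and adhesion genes made up 26 of the host genes, with 54 far DhMRs (7.32% of far intronic DhMRs, 36 Wt25, 18 AA10). Another 10 developmental transcription factor genes held 17 (2.30%, 12 Wt25, 5 AA10). Neurotransmitter receptor and ion channel genes, 10 in number, held 16 (2.17%, 7 Wt25, 9 AA10). Of all far intronic DhMRs 65.3% were of Wt25. The share of far intronic genome bins in such genes was not counted, so these counts give no enrichment.

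**Figure D2:**
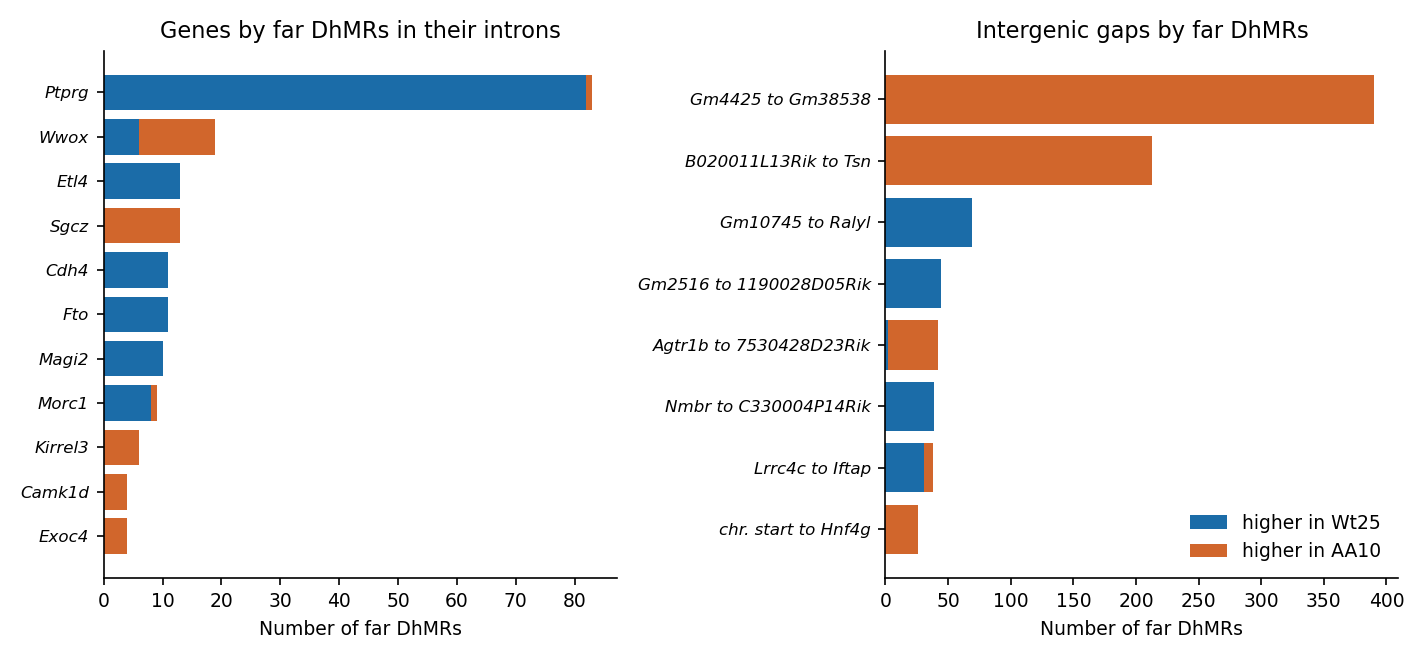
Number of far DhMRs (horizontal axes) in the introns of the leading genes (left) and in the 8 intergenic gaps that hold most of them (right), stacked by direction. Ptprg held 83, of which 82 were higher in Wt25, and the 2 leading gaps held 390 and 213, all higher in AA10.

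Far intergenic DhMRs lay in 686 gaps, 333 of which held only 1, and the 8 leading gaps held 861 (32.8% of the intergenic windows). Of the 353 gaps with at least 2, 213 held a single direction, and of the 33 with at least 10, 14 did. The leading gap, from Gm4425 to Gm38538 on chromosome 12 (542 kb), held 390 AA10 windows and no Wt25 window, and the first coding genes on its sides were Ywhaq, encoding a 14-3-3 adaptor, and Gm38538. The next gap on its centromeric side, from Gm4419 to Gm4425 (695 kb), held the opposite: 17 windows, all of Wt25, with the same median of 5 copies per 32-mer. The gap from B020011L13Rik to Tsn on chromosome 1 (495 kb) held 213 AA10 windows and none of Wt25.

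The other 6 leading gaps were between 1020.3 and 3929 kb long. The gap from Gm10745 to Ralyl, an RNA-binding protein gene, held 69 windows, all of Wt25. The adjoining gap from Snx16, a sorting nexin gene and the first coding gene on the other side, to Gm10745 held 3, all of AA10. The gap from Gm2516 to 1190028D05Rik held 44 windows, all of Wt25. Its first coding genes were Tenm3, a teneurin that guides neuronal connections, and Aga, a lysosomal hydrolase, and the adjoining gap from Tenm3 to Gm2516 held 2 Wt25 and 3 AA10 windows. The gap from Agtr1b, an angiotensin receptor gene, to 7530428D23Rik held 40 AA10 and 2 Wt25 windows. The first coding gene beyond 7530428D23Rik was Tbl1xr1, which encodes a subunit of nuclear corepressor complexes.

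The gap from Nmbr, the neuromedin B receptor gene, to C330004P14Rik held 39 windows, all of Wt25, from 353 to 514 kb from a start site, with none in a dense run. The first coding gene beyond C330004P14Rik was Cited2, which encodes a CBP/p300-binding coactivator. The gap between Lrrc4c and Iftap was the longest of the 8 and held 31 Wt25 and 7 AA10 windows. The gap from the start of chromosome 3 to Hnf4g, a nuclear receptor gene, held 26 AA10 windows.

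The 3388 far DhMRs were on 20 chromosomes and none was on Y. Chromosome 12 held most (503, 436 of AA10) and chromosome 1 came next (434, 301 of AA10), and 387 and 208 of these were in dense runs. Per 10000 far bins, the density was highest on chromosome 12 (19.5), followed by chromosome 8 (13.1), and lowest on X (1.10). Against the other far DhMRs, 18 of 20 chromosomes differed in direction (Fisher's exact test, two-sided, Benjamini-Hochberg adjusted over 20 chromosomes), 14 towards Wt25 and 4 towards AA10. Without dense runs 7 did, and 3 did when windows within 10 kb were joined to 1 region.

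Chromosomes 6, 14 and 17 passed under all 3 counts. On chromosome 6, 133 of 160 far DhMRs were higher in AA10, so that 16.9% (11.9 to 23.4%) were of Wt25, with no dense run among them. The 976 remaining DhMRs of chromosome 6 showed the same side, with 11.2% of Wt25, and the limit on DNA copy number between the clones given for the runs holds for these counts too. Joined within 10 kb, 107 of its 132 far regions were of AA10 (Fisher's exact test, adjusted P = 5.87e-21). On chromosome 14, 172 of 203 far DhMRs (84.7%) were higher in Wt25, and 74 of 103 joined regions (exact test, adjusted P = 0.048). Ptprg alone was the nearest start site of 93 of these 203, 92 of them higher in Wt25. The 478 remaining DhMRs of chromosome 14 were 68.2% of Wt25. Chromosome 14 was not tested without Ptprg. On chromosome 17, 60 of 78 far DhMRs (76.9%) were higher in Wt25, and 48 of 63 joined regions (exact test, adjusted P = 0.041). Its 797 remaining DhMRs were 63.2% of Wt25. Chromosomes 2 and 10 towards Wt25, and 18 and X towards AA10, passed without dense runs but not after joining.

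**Figure D3:**
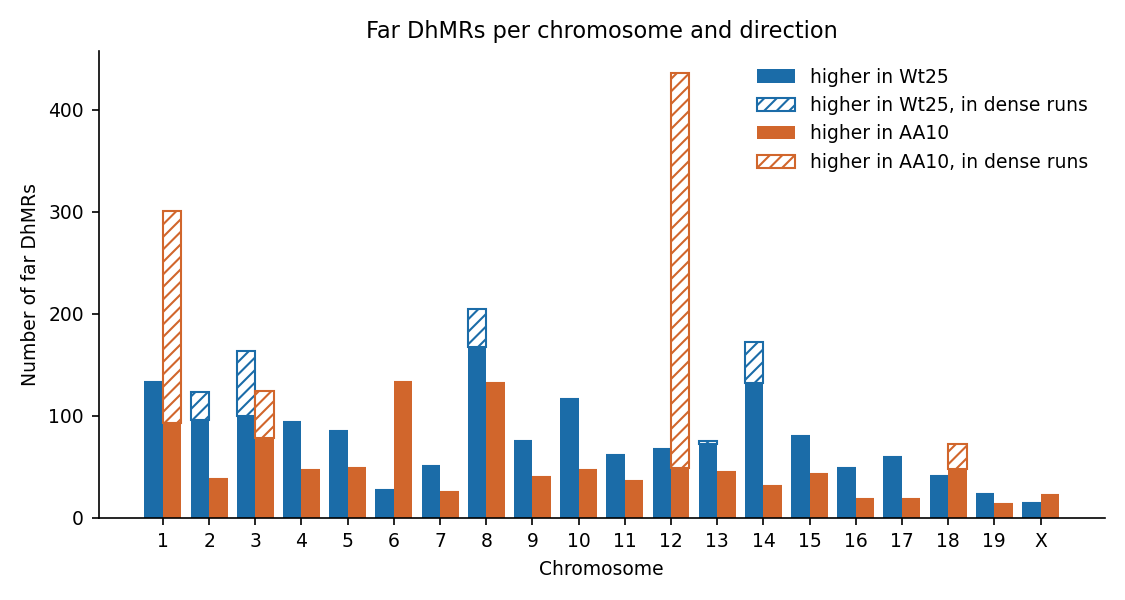
Number of far DhMRs per chromosome (vertical axis) with higher 5hmC in Wt25 (blue) and in AA10 (orange), with windows in dense runs hatched. Chromosome 12 had 436 AA10 windows, of which 387 were in a dense run, and chromosome 6 had 133 AA10 and 27 Wt25 windows with none in a dense run.

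Neighbouring far DhMRs mostly had the same direction. Of the far DhMRs, 1823 (53.8%) had another DhMR within 10 kb, and the nearest was of the same direction for 1767 (96.9%, 96.0 to 97.6%). All 1065 far DhMRs with a touching neighbour shared its direction. Where the nearest DhMR was 10 to 100 kb away the share was 83.4% (80.6 to 85.8%, n = 805), and beyond 100 kb it was 58.9% (55.4 to 62.4%, n = 760). For the remaining DhMRs the share was 94.4% (93.9 to 94.8%) within 10 kb. It was 75.2% (74.0 to 76.3%) at 10 to 100 kb, and 57.4% (54.9 to 59.7%) beyond 100 kb. Leaving out dense runs, the share within 10 kb was 95.7% for far Wt25 and 92.0% for far AA10 DhMRs. It was 94.3% and 89.9% for the remaining DhMRs of these lists. The median gap to the nearest DhMR was 14.2 kb for far Wt25 and 1.2 kb for far AA10 windows, and 23.8 and 28.7 kb without dense runs. For the remaining Wt25 and AA10 windows it was 5 and 6 kb, and 7.6 and 11.2 kb without dense runs. Joined within 1 kb, the far windows made 1414 regions of Wt25 and 973 of AA10, of which 1215 and 846 were single windows.

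**Figure D4:**
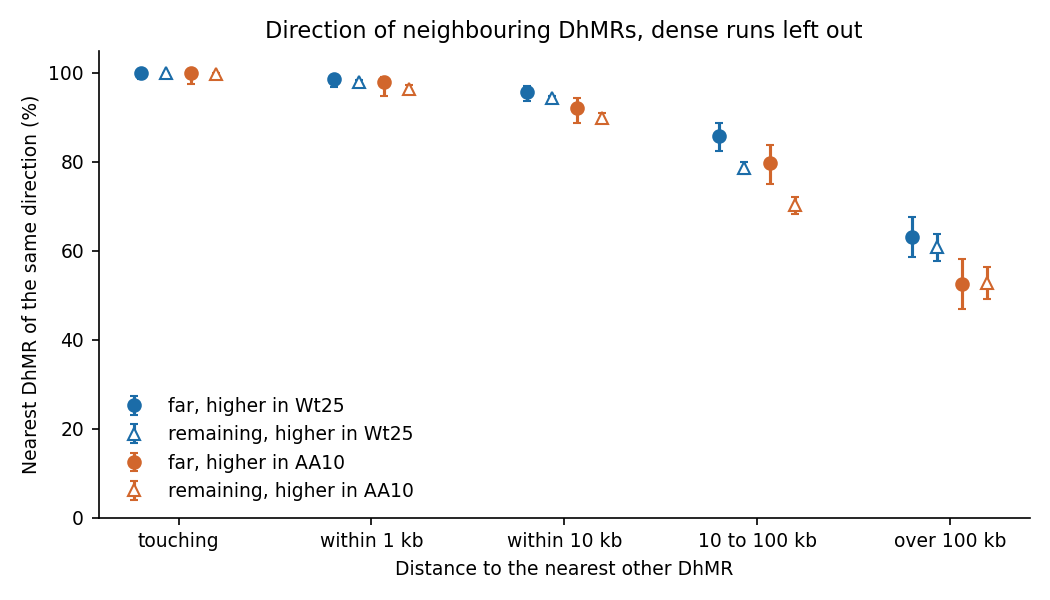
Share of DhMRs whose nearest other DhMR has the same direction (%, vertical axis) by the distance to it, for far (filled) and remaining (open) DhMRs of each direction, dense runs left out, with 95% Wilson intervals. The first 3 distance classes are nested. For far Wt25 windows the share was 100% when touching and 63.2% beyond 100 kb, and for far AA10 windows 100% and 52.6%.

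Far DhMRs were richer in CpG than far genome bins in general. A far DhMR held 2.82 ± 2.28 CpGs on average (SD over 3388 windows), a median of 2 (quartiles 1 and 4), and the far genome bins held a mean of 1.21 and a median of 1, so that the ratio of means was 2.32. The remaining DhMRs held a mean of 3.29, which was 1.76 times that of the other bins. Only 18 far DhMRs lacked a CpG, while 38.3% of far genome bins did. Of the remaining DhMRs 0.381% lacked one, so windows without a CpG were almost absent throughout. Whether bins without a CpG could enter the lists is not known, and its part in these ratios was not tested. Windows with 1 CpG made up 30.6% of far Wt25 DhMRs, 33.7% of far AA10 DhMRs and 31.4% of far bins. The share with 0 or 1 CpG was 32.6% (31.1 to 34.2%) among far and 22.3% (21.7 to 23.0%) among remaining DhMRs, against 69.7% of far bins. It was 31.0% (28.9 to 33.3%) for far Wt25 and 34.3% (32.1 to 36.6%) for far AA10, and 29.5% and 28.4% without dense runs. By distance the mean was 3.02 at 100 to 200 kb, 2.77 at 200 to 500 kb, 2.26 at 500 kb to 1 Mb and 2.47 beyond 1 Mb. Repeat-marked bases were 39.4%, 41.8%, 53.1% and 67.6% in these classes. GC content was 45.2% in far DhMRs, 39.4% in far bins and 47.1% in the remaining DhMRs, and repeat-marked bases were 42.7%, 42.3% and 29.7%. Intronic far DhMRs were 24.7% and intergenic ones 48.0% repeat marked.

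**Figure D5:**
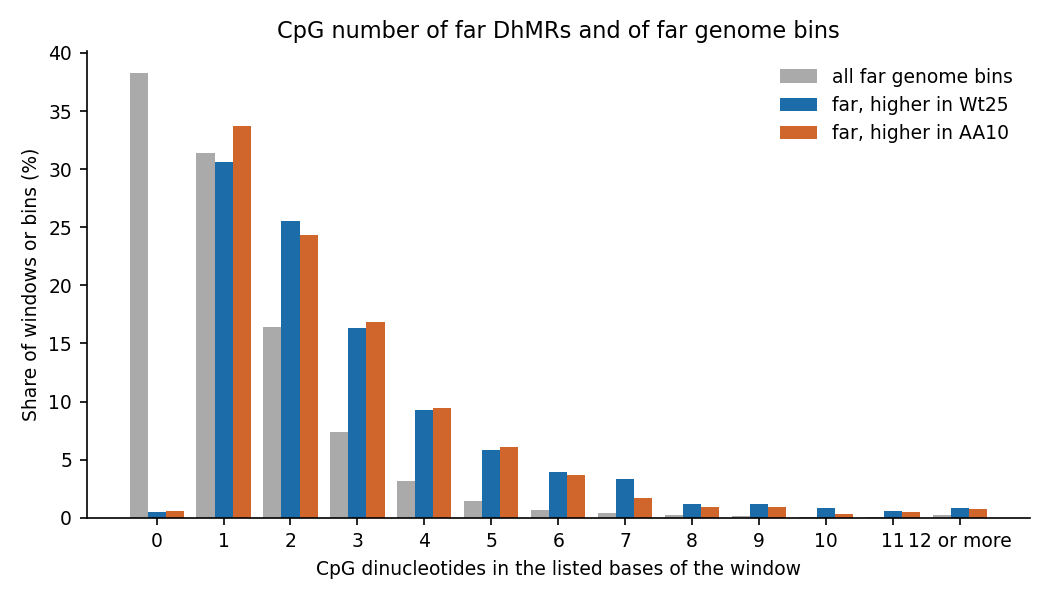
Share (%, vertical axis) of far DhMRs of each direction and of all far genome bins by the number of CpG dinucleotides in the listed bases. Of the far bins 38.3% had no CpG, against 0.466% of far Wt25 and 0.598% of far AA10 windows. Whether bins without a CpG could enter the lists is not known.

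Developmental transcription factor genes were the nearest start site of 83 far DhMRs (2.45%, 1.98 to 3.03%), beside 1.95% of far genome bins, in 37 genes. Of these DhMRs 47 were of Wt25 and 36 of AA10, and none was in a dense run. Irx3, an Iroquois homeobox gene that patterns heart, neural tube and limb, led with 10 far DhMRs 167 to 241 kb away, 9 higher in Wt25. All 9 lay in introns of Fto, the neighbouring gene for an RNA demethylase, which held 11 far intronic DhMRs, each higher in Wt25, and 14 DhMRs along the whole gene, 11 of Wt25 and 3 of AA10. Introns of Fto are known to hold enhancers that contact Irx3. The next was Nr2f1 (COUP-TFI, a nuclear receptor of cortical patterning), with 8 windows from 229 to 691 kb, all of AA10.

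Foxn2, a forkhead gene, had 7 windows from 100.4 to 117 kb, all of Wt25. Tfap2d, an AP-2 factor gene of the midbrain, had 6 windows from 246 to 280.3 kb, all of AA10. Foxk1, a forkhead gene, had 4 (2 of each direction), and Tshz2, a teashirt zinc finger gene, had 4 of Wt25 in its own introns. Barx2, a homeobox gene, had 3 (2 of Wt25), Foxp1, a forkhead repressor gene, had 3 of AA10, and En1 and Lmx1a, homeobox genes of the midbrain, had 2 each, all of Wt25. When the first coding gene on either side was taken instead, developmental transcription factors flanked 280 far DhMRs (8.26%, 7.38 to 9.24%) beside 7.16% of far bins. Of these 280 DhMRs, none in a dense run, 57.1% were higher in Wt25, beside 60.6% of all far DhMRs outside dense runs.

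Adhesion and axon guidance genes were nearest to 152 far DhMRs (4.49%, 3.84 to 5.24%), beside 6.88% of far bins, 111 of Wt25 and 41 of AA10, or 84 and 41 without dense runs. As first coding gene on either side they flanked 445 (13.1% beside 18.7%), 290 of Wt25 and 155 of AA10, or 240 and 155 without dense runs. Without dense runs 67.2% of the nearest and 60.8% of the flanking windows were of Wt25, beside 60.6% of all far DhMRs outside runs. Lrrc4c had 33 (32 of Wt25, 27 in the run described above). Cdh4 had 10 and Cdh2, the N-cadherin gene, had 6, all of Wt25. Cdh9, a type II cadherin gene, had 5 of 6 in Wt25, and Lrrtm1, a synaptic leucine-rich repeat gene, had 5 of 6 in AA10.

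Developmental signalling genes were nearest to 15 far DhMRs (0.443% beside 0.552% of far bins), 10 of Wt25, and as first coding gene on either side they flanked 35 (1.03% beside 1.53%), 22 of Wt25. The Wt25 shares were 66.7% and 62.9%, with no window in a dense run, beside 60.6% of all far DhMRs outside dense runs. Among the signalling genes Inhbb, an activin subunit, had 3, and Dkk2, a Wnt modulator, had 2, all of Wt25. Bmp5 had 1 of each direction, and Bmp7 and Fgf10 had 1 each of Wt25. Neurotransmitter receptors and ion channels were nearest to 33 (0.974% beside 2.39%), 20 of Wt25 and 13 of AA10. As first coding gene on either side they flanked 140 (4.13% beside 6.20%), of which 67 were of Wt25 and 73 of AA10. The Wt25 shares of the nearest and flanking windows were 60.6% and 47.9%, again with none in a dense run. Grik2, a kainate receptor gene, had 12 of 14 in Wt25, and Grm7, a metabotropic glutamate receptor gene, had 4 of 4 in AA10. Chrm3, a muscarinic receptor gene, and Kcna4, a potassium channel gene, had 2 each, and Cacna1a, a calcium channel gene, had 1, all of Wt25.

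Of the pluripotency genes looked for, only Nr5a2 was the nearest start site of a far DhMR. Nr5a2, an orphan nuclear receptor that can activate Pou5f1 in ESCs, had 10 far DhMRs from 112 to 414 kb, all intergenic and all higher in Wt25. As first coding gene on either side, 6 pluripotency genes flanked 35 far DhMRs (1.03% beside 0.360% of far bins), 26 of Wt25 and 9 of AA10. None was in a dense run, and 74.3% were of Wt25, beside 60.6% of all far DhMRs outside dense runs. Of these 35, 14 lay in the single gap from Nr5a2 to Mir181a-1, all of Wt25. Chemosensory receptor genes (olfactory, vomeronasal and taste) were nearest to 27 (0.797% beside 0.329% of far bins), of which 25 were of AA10. Of the 27, 24 lay in the AA10 run near the start of chromosome 18, and 3 (0.118% of far DhMRs outside runs) did not. No gene list was tested for enrichment, because windows share gaps and runs and are not independent.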

How the data were processed

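The deposited lists held genomic windows as chromosome, start, end and Ensembl gene identifier, with no header, count, fold change or P-value. Per the study's methods, reads were aligned uniquely to GRCm38 with STAR, and PCR duplicates were taken out with Picard. The authors compared the 3 Wt25 with the 3 AA10 5hmC-DIP libraries in 200 bp bins with MEDIPS (P-value under 0.05, fold of at least 1). Peaks of an IgG control, simple tandem repeats and low-complexity sequence had been removed, and HOMER had assigned genes. Each window listed 198 bases. Here, distances, introns and gaps were computed from curated (NM_ and NR_) RefSeq transcripts of GRCm38.p6. CpGs, repeat-marked (lower-case) bases and 32-mer copies were counted in that assembly. A midpoint inside several transcripts took the longest one as host. Bins without unknown bases stood for the tested bins. Directions were compared by Fisher's exact test (scipy 1.17.1), two-sided, with Benjamini-Hochberg adjustment and a threshold of 0.05, or within chromosomes by the Mantel-Haenszel method (statsmodels 0.14.6), in Python 3.11.15, and functions were tested on simulated data. The members, gene lists and naming rules were chosen with earlier results of these data known. Named were the 8 genes and 8 gaps with most far DhMRs, the 5 leading genes of each list, the leading nearest genes of each gene list, and the 3 farthest and 3 most CpG-rich windows of each list, with ties broken by gene name, of which those the results turn on are described. P-values count windows as independent and do not measure the spread between libraries. The gDNA input, H3K27ac and RNA libraries were not analysed here.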

Additional observations from a re-analysis of the deposited data

How the results depend on the processing

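Odds ratios of the 4 direction comparisons passed the threshold as reported and depended on how clustered windows were counted. For far against remaining DhMRs (0.689), the odds ratio was 0.967 after joining windows within 1 kb, 0.982 without dense runs, 0.963 also without chromosome 6 and 0.975 for windows of 1 copy, none past the threshold. It reversed to 1.01 after joining within 10 kb, 1.05 without the 2 largest far runs and 1.15 with GENCODE start sites. It stayed past the threshold and below 1 under 10 other settings (0.652 to 0.879). For intergenic against intronic DhMRs (0.462), it was 0.795 and 0.942 after joining within 1 and 10 kb, 0.853 without dense runs, 0.816 also without chromosome 6 and 0.864 within chromosomes, none past the threshold. It stayed past the threshold under 6 other settings (0.414 to 0.781), among them without the 2 largest far runs (0.781) and windows of 1 copy (0.710). For gene deserts against shorter gaps (2.40), it was 1.18 and 1.06 after joining, 1.03 without dense runs, 1.07 without the 2 largest far runs and 1.05 for windows of 1 copy, none past the threshold, and it reversed to 0.970 without dense runs and chromosome 6. It stayed past the threshold under 5 other settings (1.41 to 2.79), among them within chromosomes (1.57). For DhMRs beyond 500 kb against those at 100 to 200 kb (2.08), it was 1.10 after joining within 1 kb, 1.30 for windows under 50% repeat marked, 1.29 without the 2 largest far runs and 1.19 for windows of 1 copy, none past the threshold. It reversed to 0.944 after joining within 10 kb, 0.855 without dense runs and 0.812 also without chromosome 6. It stayed past the threshold under 4 other settings (1.45 to 2.14), among them within chromosomes (1.64). Joining and leaving out runs count fewer windows from the same places, and beyond that the cause was not tested. The number of far DhMRs was 1517 with all RefSeq start sites, 504 with GENCODE start sites, 5905 at a threshold of 50 kb and 1742 at 200 kb. Chromosomes past the threshold numbered 18 as reported, 7 without dense runs and 3 after joining within 10 kb. The share with 0 or 1 CpG was 26.2% for far Wt25 windows under 50% repeat marked and 28.4% for far AA10 windows without dense runs. The same-direction share was 99.3% within 1 kb, 92.8% within 100 kb, 83.4% at 10 to 100 kb and 94.3% within 10 kb without dense runs. The settings that leave out chromosome 6 with the runs, the 2 largest runs, gaps at chromosome ends and windows of several copies, the coding set with predicted start sites, and the same-direction share without runs were chosen after seeing the data. No paired analysis was possible because the lists pool the libraries of each line, and for the same reason no replicate could be left out. Depth limits which windows could be listed, and it was not carried by the lists.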

Other observations

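The gene identifiers deposited with the windows mostly pointed to the gene found here. Of the far DhMRs 3247 (95.8%) carried an identifier, each of which had a symbol, and for 2946 (90.7% of those) it was the gene with the nearest curated start site. The other 141 far DhMRs carried none.

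Predicted genes filled few of the intergenic windows. Of the 2624 intergenic far DhMRs, 261 (9.95%) lay inside a gene once predicted RefSeq transcripts were added. Far DhMRs had 1146 different genes as their nearest curated start site, 636 of which were nearest to only 1 far DhMR, and 162 were nearest to DhMRs of both directions.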
